A study of Mus musculus with 10 samples.

Results

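The 5 X-linked genes of the ubiquitin system, Huwe1, Usp9x, Cul4b, Uba1 and Ube2a, were followed through the first day of Xist induction. They were chosen by gene name and are 5 of the 1028 X-linked genes and of the 24386 genes in the tables. Total nascent reads were available for all 5, and reads assigned to an allele were sufficient for a B6 share in 4 of them, since Ube2a had 0 allelic reads in every sample. The data are transient transcriptome sequencing (TT-seq), which reads RNA made during a short pulse of 4-thiouridine (4sU), here 5 min at 0.5 mM. All 10 samples came from TX1072, a female mouse embryonic stem cell line labelled WT that carries one CAST and one C57BL/6 (B6) chromosome set. In this line doxycycline (DOX) switches on the endogenous Xist gene of the B6 X chromosome. Cells received DOX at 1 µg/ml for 0, 4, 8, 12 or 24 h (2 replicates each). Every DOX sample could express Xist. DOX was added 24 h after plating, so hours of DOX and hours in culture cannot be told apart in total counts, whereas the B6 share compares both alleles of the same sample. All results are for a single line.

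Ubiquitin is attached to proteins by a relay of enzymes. The E1 enzyme Uba1 activates ubiquitin with ATP and passes it to E2 conjugating enzymes such as Ube2a, the mammalian homologue of yeast Rad6, and E3 ligases then choose the substrate. Huwe1 is a very large HECT-type E3 ligase whose substrates include p53, Mcl1 and Myc family proteins, and Cul4b is the scaffold of a cullin-RING E3 ligase that binds substrates through Ddb1. Usp9x is a deubiquitinating enzyme that removes ubiquitin from its substrates and so stabilises them. In human cells UBA1 and USP9X are known to escape X inactivation, and mutations of HUWE1, CUL4B, UBE2A and USP9X cause X-linked intellectual disability. In mouse embryonic stem cells both X chromosomes are active until Xist RNA coats one of them in cis.

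The 5 genes lie on both sides of Xist in the mm10 genome (GRCm38). Usp9x (ENSMUSG00000031010.17) occupies chrX:13071498-13173327 on the plus strand, 90.3 Mb from Xist. Uba1 (ENSMUSG00000001924.15) occupies chrX:20658302-20683179 on the plus strand, 82.8 Mb away. Ube2a (ENSMUSG00000016308.12) occupies chrX:36874295-36884220 on the plus strand, 66.6 Mb away, and Cul4b (ENSMUSG00000031095.15) chrX:38531621-38576196 on the minus strand, 64.9 Mb away. Those 4 genes precede Xist, and Huwe1 (ENSMUSG00000025261.17) lies 48.3 Mb on the other side of it, on the plus strand at chrX:151803282-151935417. All 5 are annotated as protein coding, and reads were counted over the whole gene span, exons and introns together.

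Promoter sequences from RefSeq (GRCm38.p6), covering 250 bases before to 50 bases after the start, were matched for 4 of the 5 genes by symbol and by the deposited start. Those of Huwe1 and Uba1 are shown because the measured changes of their B6 share after Xist induction differed in size. Any link between promoter sequence and the B6 share was not tested. Capitals mark matches, on either strand, to any of 5 short motifs. These were the TATA box (searched as TATAAA), the CCAAT box (searched as CCAAT), the YY1 core (searched as ATGGCG), the GC box (searched as GGGCGG) and the ETS core (searched as CCGGAA).
Huwe1, chrX:151803032-151803331, plus strand: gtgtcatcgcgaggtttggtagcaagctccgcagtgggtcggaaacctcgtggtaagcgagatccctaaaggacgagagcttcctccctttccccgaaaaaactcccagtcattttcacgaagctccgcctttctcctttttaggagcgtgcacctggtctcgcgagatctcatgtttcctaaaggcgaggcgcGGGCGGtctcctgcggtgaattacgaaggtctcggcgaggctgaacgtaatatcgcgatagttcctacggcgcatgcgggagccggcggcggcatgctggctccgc
Uba1, chrX:20658052-20658351, plus strand: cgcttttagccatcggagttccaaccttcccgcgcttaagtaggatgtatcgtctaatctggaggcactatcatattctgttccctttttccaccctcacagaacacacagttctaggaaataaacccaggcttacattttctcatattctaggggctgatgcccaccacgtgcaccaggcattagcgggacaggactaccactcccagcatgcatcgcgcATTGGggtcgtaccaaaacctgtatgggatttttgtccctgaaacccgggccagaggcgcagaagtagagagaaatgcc

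The Huwe1 promoter held 31 CpG dinucleotides, more than 89.4% of the 32851 promoters in the table, and the Uba1 promoter held 12, more than 60.4% of them. Huwe1 and Ube2a each had 1 GC box match, a motif found in 35.7% of all promoters. Cul4b and Uba1 each had 1 CCAAT match, a motif found in 37.4%. None of the 4 promoters held a match to the TATA box, the YY1 core or the ETS core, which occurred in 13.6%, 8.93% and 14.9% of all promoters. The span of Huwe1 also holds 3 annotated microRNA genes on the same strand, Mir3113, Mir98 and Mirlet7f-2, each listed at 0 reads in every sample. Mir98 and Mirlet7f-2 give mature RNAs with the same seed (bases 2 to 8, in capitals), shown because both lie within the span counted here as Huwe1.
mmu-let-7f-5p: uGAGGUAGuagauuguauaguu
mmu-miR-98-5p: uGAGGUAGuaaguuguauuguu

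Libraries were of similar size, with 18809046 to 22274929 reads counted per sample. The allelic part of the total was lowest in 0 h replicate 1 (49.22%) and 51.73% to 52.76% elsewhere. Xist rose from 1.47 ± 0.0839 CPM (reads scaled to the library total, SD, n = 2) at 0 h to 449 ± 47.5 CPM at 24 h, with 99.81% of its allelic reads from B6. The 7 pluripotency markers examined summed to 2590 to 2850 CPM in every sample. One of them, Sox2, was listed at 0, and its gene lies within Sox2ot on the same strand. Primitive endoderm, trophectoderm, mesoderm, feeder and neuroectoderm markers summed to at most 8.52 CPM each, and formative markers to 6.21 to 10.4 CPM.

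Before DOX, Usp9x and Huwe1 had the highest nascent levels per length of the 5 genes. At 0 h Usp9x had 17.0 ± 0.799 CPM per kb of gene span (SD, n = 2) and Huwe1 14.5 ± 1.47, ranks 15 and 18 among 502 X-linked genes. Cul4b followed with 11.9 ± 0.108 (rank 23), Uba1 with 6.84 ± 0.957 (rank 46) and Ube2a with 3.16 ± 0.0326 (rank 118). The 0 h replicates of genes next to each other in this order did not overlap, but the steps from Usp9x to Huwe1 and from Huwe1 to Cul4b were each under 2 SDs of Huwe1. On this scale the deubiquitinase and both ligase genes had more nascent reads per length than the E1 enzyme gene Uba1.

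The share of reads that could be assigned to an allele set how well each gene was measured. Allelic reads were 49.8% of total reads for Uba1, 42.9% for Usp9x and 35.5% for Huwe1, but 1.81% for Cul4b. Cul4b therefore had 124 to 197 allelic reads per sample, although its total count was 7272 to 11515. For Ube2a, 0 of 5664 total reads over the 10 samples were allelic, which allows an allelic share of up to 0.053% (counting error only). Across X-linked genes tested for total counts the median was 43.4% (interquartile range 29.4% to 52.1%), against 58.9% for autosomal genes. Low shares were common around Ube2a and Cul4b. Of 35 tested genes between 22 and 44 Mb of the X, 23 had under 10% allelic reads and the median was 5.89%, whereas 39 of the 467 X-linked genes elsewhere were under 10% and their median was 44.8%. The limits of this window were chosen after the values were seen. Next to Ube2a, Nkrf had 0.225% allelic reads and Sept6, Rpl39 and C330007P06Rik had none. Positions of strain variants were not used here, and their part in these shares was not tested.

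**Figure D1:**
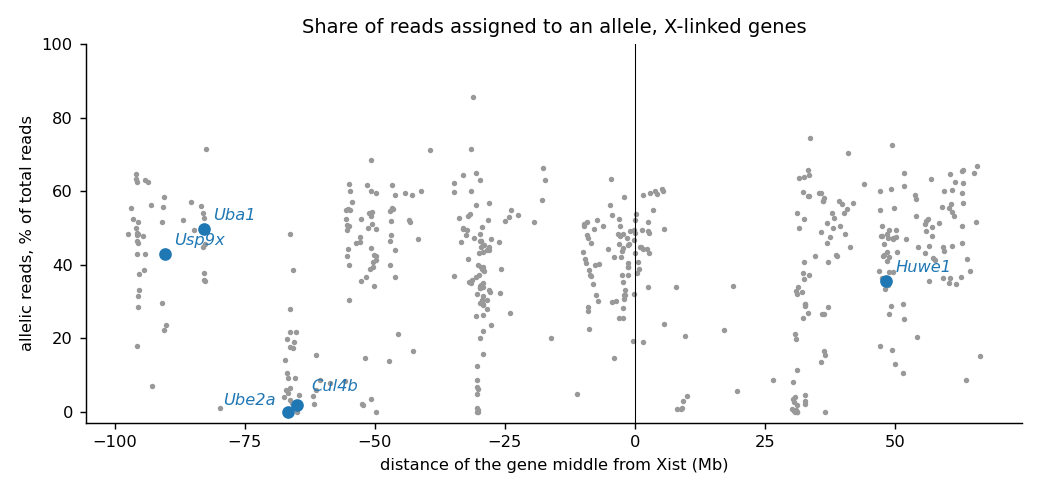
Reads assigned to an allele as a percent of total reads (all 10 samples summed, y axis) for each of 502 X-linked genes, against the distance of the gene's middle from Xist in Mb (x axis, vertical line at Xist). Ube2a (0%) and Cul4b (1.81%) sit among genes with few allelic reads, while Huwe1, Usp9x and Uba1 lie between 35.5% and 49.8%.

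The main question was how the B6 share of each gene changed after Xist was switched on from the B6 chromosome. The measure is the d-score, the B6 reads divided by the sum of B6 and Cast reads. By 24 h the share was lower than at 0 h in 4 of the 4 genes with allelic reads, but by different amounts. Huwe1 passed the test from 4 h on, Usp9x from 8 h on, and Uba1 and Cul4b at 24 h and at no earlier time. This order of calls depends on read depth too and is not an order of change. At 8 h the log2 B6 to Cast ratio had changed by -0.64 in Cul4b, which was not called (124 to 197 allelic reads per sample). In Usp9x it had changed by -0.21, which was called (13529 to 17289 allelic reads).

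Huwe1, the HECT ligase, began with d-scores of 0.470 and 0.442 in its 0 h replicates. The pair of values was 0.430 and 0.407 after 4 h of DOX, 0.336 and 0.336 after 8 h, 0.313 and 0.308 after 12 h and 0.282 and 0.267 after 24 h. All 8 DOX samples lay below both 0 h samples, and the replicates of each time did not overlap those of the next. Relative to 0 h the B6 to Cast ratio changed on the log2 scale by -0.22 ± 0.0408 (SE) after 4 h, -0.72 ± 0.0413 after 8 h, -0.89 ± 0.0414 after 12 h and -1.15 ± 0.0423 after 24 h. The edgeR adjusted p-values of these 4 changes were 0.000277, 4.99e-32, 2.73e-40 and 3.29e-50. The 4 h call was not kept without 0 h replicate 1 (-0.14, adjusted p 0.785) or without 4 h replicate 2 (-0.15, adjusted p 0.546), nor with DESeq2 (adjusted p 0.687).

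Usp9x, the deubiquitinase, started with more B6 than Cast reads, at d-scores of 0.567 and 0.564. The replicates had 0.567 and 0.551 after 4 h, 0.532 and 0.528 after 8 h, 0.505 and 0.509 after 12 h and 0.472 and 0.472 after 24 h. From 8 h on every sample lay below both 0 h samples, and at 4 h replicate 1 lay within their range. The log2 ratio differed from 0 h by -0.04 ± 0.0371 (SE) after 4 h, -0.21 ± 0.0369 after 8 h, -0.34 ± 0.0368 after 12 h and -0.54 ± 0.0372 after 24 h. Adjusted p-values from edgeR were 0.994, 1.51e-05, 1.33e-13 and 4.79e-26 in that order. These small changes were resolved because Usp9x had 13529 to 17289 allelic reads per sample, more than any other X-linked gene tested, as judged by the lowest sample.

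Cul4b, the cullin scaffold, was measured on few reads, and its samples scattered accordingly. Its 0 h d-scores were 0.553 (95% Wilson interval 0.484 to 0.621) and 0.457 (0.388 to 0.529). They were 0.462 and 0.459 after 4 h, 0.420 and 0.373 after 8 h, 0.415 and 0.411 after 12 h, and 0.223 (0.162 to 0.299) and 0.298 (0.225 to 0.384) after 24 h. Both 24 h samples lay below all the others, whereas one 0 h replicate lay just below the 4 h pair. The log2 ratio was off its 0 h value by -0.27 ± 0.233 (SE) after 4 h, -0.64 ± 0.233 after 8 h, -0.54 ± 0.232 after 12 h and -1.55 ± 0.26 after 24 h, and edgeR gave adjusted p-values of 0.994, 0.318, 0.478 and 1.59e-06. At 8 and 12 h the unadjusted p was 0.00718 and 0.0211, so a change of that size was not detectable after adjustment at this depth.

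Uba1, the E1 enzyme, showed little movement until the last time. Its d-scores were 0.530 and 0.550 before DOX, 0.575 and 0.516 after 4 h, 0.527 and 0.506 after 8 h, 0.517 and 0.523 after 12 h and 0.458 and 0.457 after 24 h. The 4 h samples enclosed the 0 h range, the 8 and 12 h samples lay just under it, and the 24 h pair was below all other samples. The log2 ratio moved by 0.04 ± 0.0842 (SE), -0.14 ± 0.0825, -0.12 ± 0.0829 and -0.48 ± 0.0844 at the 4 times, with edgeR adjusted p-values of 0.994, 0.943, 0.875 and 5.81e-06.

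**Figure D2:**
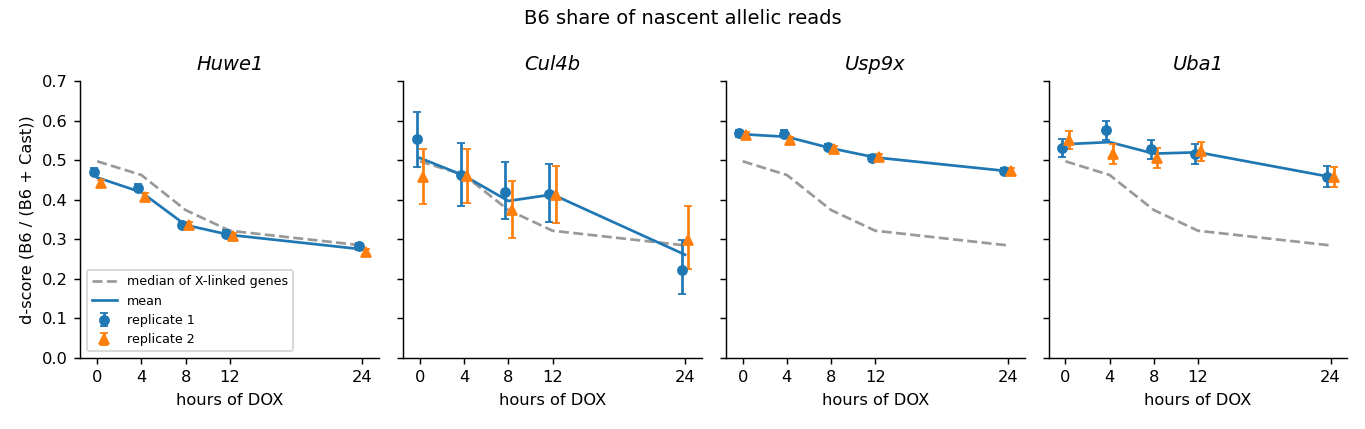
d-score (y axis) against hours of DOX (x axis) for the 4 genes with allelic reads, with replicate 1 as circles and replicate 2 as triangles, shifted apart for visibility. Vertical bars are 95% Wilson intervals (counting error only), solid lines are replicate means, and the dashed line is the median over 362 X-linked genes, which went from 0.497 to 0.284. Huwe1 ended at 0.274, near that median, while Usp9x and Uba1 ended at 0.472 and 0.457.

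Counted by time, 1, 2, 2 and 4 of the 4 genes had a lower B6 share than at 0 h at 4, 8, 12 and 24 h. The same call was made for 11.3%, 52.8%, 65.5% and 75.1% of the 362 X-linked genes tested, Xist left out, and at 24 h for 2.4% of all genes tested. The median log2 change of these X-linked genes was -0.20, -0.69, -1.01 and -1.27 at the 4 times. Usp9x and Uba1 changed less than most of them. At 24 h 38 and 29 of the 362 genes had a higher (less negative) value than Usp9x and Uba1, while Huwe1 had 151 above it and Cul4b 227.

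Between successive times Huwe1 kept moving. Its log2 ratio fell by 0.51 ± 0.0418 (SE) from 4 to 8 h, by 0.17 ± 0.0424 from 8 to 12 h and by 0.26 ± 0.0434 from 12 to 24 h, with edgeR adjusted p-values of 1.38e-19, 0.0347 and 4.51e-05. For Usp9x it was -0.17 (adjusted p 0.00175), -0.13 (SE 0.0367, adjusted p 0.0729) and -0.20 (adjusted p 0.00033). For Uba1 the last interval passed the test, at -0.36 (SE 0.086, adjusted p 0.0237), and for Cul4b it was -1.01 (SE 0.268, adjusted p 0.0748). Thus 2, 1 and 3 of the 4 genes were called lower in the 3 intervals, beside 37.6%, 13.8% and 6.91% of X-linked genes. Depth differed between the 2 sides of this comparison, since the standard error from 12 to 24 h was 0.0434 for Huwe1 and 0.0371 for Usp9x against a median of 0.219 over X-linked genes. DESeq2 called 0 of the 4 genes from 8 to 12 h, where 2 had an unadjusted p under 0.05 and 1 was given no adjusted p, and 0 from 12 to 24 h, where all 4 had an unadjusted p under 0.05. The Uba1 call in this interval was not kept when any of the 12 or 24 h samples was left out (adjusted p 0.145 to 0.301), and that of Huwe1 was not kept without 24 h replicate 2 (adjusted p 0.127). From 8 to 12 h the Huwe1 call was lost without any one of the 8 or 12 h samples (adjusted p 0.14 to 0.421). From 4 to 8 h the Usp9x call was lost without 4 h replicate 1 (adjusted p 0.436) or 8 h replicate 2 (adjusted p 0.0869).

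Curves gave the same values as a time. Each sample was normalised to the 0 h sample of the same replicate number, so that both series start at 0.5. The labels do not say that these samples belong together. IC35 is the time at which a 4-parameter log-logistic curve through the normalised values reaches 0.35. Huwe1 reached this level at 10.0 h, rank 172 of the 248 X-linked genes that reached it within 24 h, out of 330 curves kept. Fitted to each replicate alone, its IC35 was 11.1 h without replicate 1 and 8.95 h without replicate 2. Cul4b gave 14.9 h, with 21.1 h and 11.0 h from single replicates, so its place in the order is poorly fixed. Normalised to the mean of the 0 h samples instead, the IC35 was 9.97 h for Huwe1 and 14.4 h for Cul4b. Usp9x and Uba1 did not reach the level within 24 h, when their normalised d-scores were 0.418 ± 0.00158 and 0.423 ± 0.0123 (SD, n = 2). Those values ranked 26 and 24 from the top of the 330 curves, whose median was 0.296. ED50, the midpoint of the fitted curve, was 6.65 h for Huwe1 and 10.8 h for Usp9x. For Cul4b and Uba1 it lay beyond the last time and is not given.

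Whether the ratio of one gene changed more than that of another was tested for 6 pairs by an exact two-sided permutation test of the 2 samples at 0 h against the 8 with DOX. The smallest p this design allows is 0.0222. The log2 ratio of Huwe1 relative to Usp9x was -0.64 ± 0.0999 (SD, n = 2) at 0 h and -1.10 ± 0.182 (SD, n = 8) with DOX, a difference of -0.47 (exact permutation p 0.0222, adjusted p 0.0667 over the 6 pairs). Relative to Uba1 it was -0.49 ± 0.199 at 0 h and -1.06 ± 0.223 with DOX, a difference of -0.57 (exact permutation p 0.0222, adjusted p 0.0667). In both pairs all 8 DOX samples lay below both 0 h samples, but neither passed the adjustment. Both were at the smallest p possible, so a larger difference could not have given a lower p. The missing call is thus set by the number of arrangements and does not show that the genes changed alike. For Cul4b relative to Uba1 the difference was -0.56 (exact permutation p 0.0889, adjusted p 0.178), and for Usp9x relative to Uba1 it was -0.10 (exact permutation p 0.222, adjusted p 0.293). Usp9x relative to Cul4b gave 0.46 (exact permutation p 0.244, adjusted p 0.293) and Huwe1 relative to Cul4b gave -0.01 (exact permutation p 1.0, adjusted p 1.0). The 8 DOX samples come from different times, so each DOX mean and SD also covers change between those times. At 24 h alone, Huwe1 relative to Cul4b differed from 0 h by 0.92 in replicate 1 and -0.15 in replicate 2 (mean 0.39). For Usp9x relative to Cul4b this mean was 0.99, and for Cul4b relative to Uba1 -1.06. The value of -0.01 thus does not show that Huwe1 and Cul4b changed alike.

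A share can fall because B6 reads are lost or because Cast reads are gained, so each allele was also tested by itself, with its autosomal reads as the library size. Allele values below are allelic CPM, the reads of an allele scaled to the autosomal reads of that allele. The B6 level of Huwe1 was 1099 and 1242 before DOX, 703 and 767 after 8 h and 518 and 527 after 24 h. The 24 h pair was far below the 0 h pair, and the fitted change was -1.15 on the log2 scale (SE 0.0872, edgeR adjusted p 1.09e-09), or a fall by 55.0%. Its Cast reads were 1335 and 1707 at 0 h and 1435 and 1580 at 24 h, with the later pair inside the range of the earlier one.

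B6 reads of Usp9x were 1515 and 1678 at 0 h and 1228 and 1145 at 24 h, and the change was -0.42 (SE 0.0828, edgeR adjusted p 0.00243). The Cast level of this gene was 1244 and 1414 before DOX, 1594 and 1435 after 12 h and 1494 and 1396 after 24 h. At 12 h the Cast change was 0.23 (SE 0.0841), the largest of any of these genes on that allele, with an unadjusted p of 0.0117 and an adjusted p of 0.463. B6 reads of Uba1 were 184 and 164 at 0 h and 126 and 111 at 24 h, a change of -0.54 (SE 0.0976, edgeR adjusted p 0.0008), while its Cast reads were 175 and 146 against 163 and 144. B6 reads of Cul4b were 21.2 and 14.8 at 0 h and 5.96 and 6.20 at 24 h, a change of -1.54 (SE 0.232, edgeR adjusted p 7.51e-05). In each gene the 2 B6 values at 24 h lay below both 0 h values, whereas the Cast values of the 2 times overlapped, or, for Cul4b, enclosed them.

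**Figure D3:**
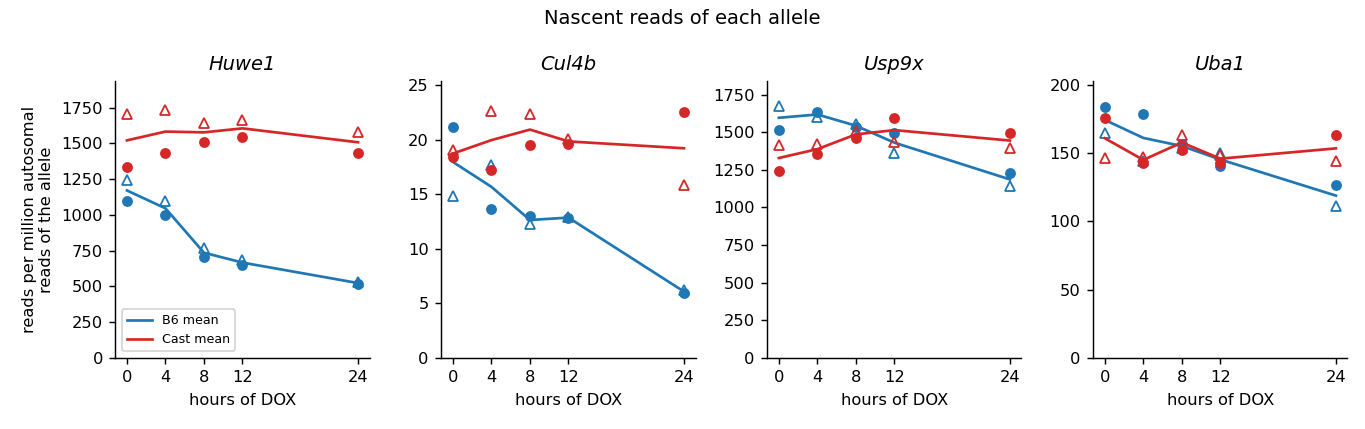
Allelic CPM of B6 (blue) and Cast (red), scaled to the autosomal reads of each allele (y axes, each from 0), against hours of DOX (x axis). Filled circles are replicate 1, open triangles replicate 2, and lines join the means. B6 lines descend in all 4 panels by 24 h, from 1171 to 523 for Huwe1 and from 174 to 119 for Uba1, while the Cast lines show no called change.

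By this measure 0, 1, 1 and 4 of the 4 genes had fewer B6 reads than at 0 h at 4, 8, 12 and 24 h, the single gene at 8 and 12 h being Huwe1. At 4 h DESeq2 also called 0, and 0 had an unadjusted p under 0.05. Among X-linked genes 0.552%, 47.0%, 68.8% and 77.6% were called lower at 4, 8, 12 and 24 h, and 2.58% of all genes tested at 24 h. The 24 h calls of Usp9x and Uba1 rest on 24 h replicate 2, without which the adjusted p was 0.0931 and 0.0535, and that of Usp9x also on 0 h replicate 2 (adjusted p 0.0514 without it). On the Cast allele 0 of the 4 genes were called at any time by edgeR, or by DESeq2 where it gave an adjusted p. An unadjusted p under 0.05 was reached on that allele by 1 gene at 8 and at 12 h, Usp9x with a higher value, and by 0 genes at 4 and 24 h. In either direction 0.0%, 0.0%, 0.276% and 0.829% of X-linked genes were called at 4, 8, 12 and 24 h, and 0.176% of all genes at 24 h.

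Total nascent reads, which do not depend on allelic assignment, give the only view of Ube2a and the deepest one of Cul4b. By 24 h Cul4b and Huwe1 had passed the test for a lower total. With a replicate block, which the numbering of the replicates allows, Uba1 and Ube2a passed it too. Fewer cells carrying an active gene and less RNA per cell cannot be told apart in such bulk samples.

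Cul4b had 532 and 525 CPM before DOX. It had 506 and 480 after 4 h, 458 and 451 after 8 h, 436 and 403 after 12 h and 370 and 349 after 24 h. The pairs of successive times did not overlap, and the 24 h change was -0.54 (SE 0.0714, edgeR adjusted p 0.000504). At 12 h it was -0.28 (SE 0.0712, adjusted p 0.0966), which passed with the block (adjusted p 0.00712). Huwe1 had 1775 and 2049 CPM before DOX, then 1714 and 1946 after 4 h, 1540 and 1688 after 8 h, 1565 and 1622 after 12 h and 1358 and 1462 after 24 h. Its replicate 2 was above replicate 1 at each time. The 24 h change of Huwe1 was -0.43 (SE 0.0999, adjusted p 0.0396; with the block, adjusted p 9.37e-05), and it was not kept without 0 h replicate 2, 24 h replicate 1 or 24 h replicate 2 (adjusted p 0.159, 0.318 and 0.105).

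Ube2a, the E2 enzyme, had 31.6 and 31.1 CPM before DOX, then 34.3 and 25.2 after 4 h, 26.7 and 26.5 after 8 h, 24.0 and 25.3 after 12 h and 25.3 and 24.7 after 24 h. From 8 h on every sample lay below both 0 h samples. The 24 h change was -0.31 (SE 0.114, edgeR adjusted p 0.279; with the block, SE 0.0956 and adjusted p 0.0437). Uba1 had 187 and 153 CPM before DOX, 164 and 147 after 4 h, 153 and 161 after 8 h, 149 and 145 after 12 h and 145 and 128 after 24 h, a 24 h change of -0.30 (SE 0.0875, adjusted p 0.127; with the block, adjusted p 0.00515). Uba1 also passed with no filter on low counts (adjusted p 0.0415) and without 0 h replicate 2 (adjusted p 0.0249). Usp9x had 1673 and 1788 CPM before DOX, 1764 and 1766 after 4 h, 1760 and 1778 after 8 h, 1819 and 1653 after 12 h and 1591 and 1481 after 24 h. Its samples up to 12 h overlapped those at 0 h, and at 24 h the change was -0.16 (SE 0.0826, adjusted p 0.548; with the block, adjusted p 0.273).

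**Figure D4:**
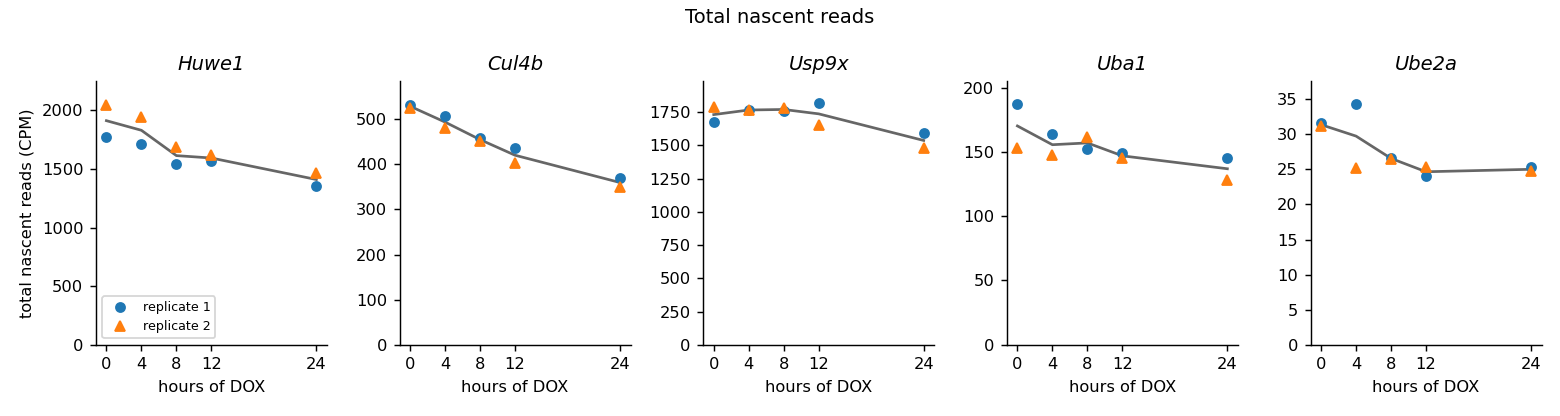
Total nascent reads in CPM (y axes, each from 0) against hours of DOX (x axis) for the 5 genes, with circles for replicate 1, triangles for replicate 2 and lines through the means. Cul4b declines from 529 to 359 CPM and Huwe1 from 1912 to 1410, while Usp9x stays between 1730 and 1769 until 12 h and is 1536 at 24 h.

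At 24 h 2 of the 5 genes were called lower, beside 38.0% of 502 X-linked genes and 1.54% of all genes tested. With the block 4 of the 5 were called, beside 61.4% of the X-linked and 3.46% of all genes. At 4, 8 and 12 h edgeR called 0 of the 5, with 0, 2 and 3 at an unadjusted p under 0.05, and DESeq2 called 0, 0 and 1. Of the 502 X-linked genes edgeR called 0.0%, 5.38% and 22.5% lower at these times, and of all genes tested 0.0%, 0.186% and 0.854%. The median change of X-linked genes at 24 h was -0.50. From the 0 h d-score and the B6 change one can compute the total that would result if the B6 reads alone had changed. This gives a 24 h change of -0.42 for Huwe1 (measured -0.43), -0.58 for Cul4b (measured -0.54), -0.27 for Uba1 (measured -0.30) and -0.22 for Usp9x (measured -0.16). Each measured value lay within 1 SE of its computed one. This SE is that of the measured total alone and leaves out the error of the computed value. Allelic reads are also part of the total, so the 2 values are not independent and their closeness is no separate test. At 12 h the 2 values were further apart than 1 SE of the measured total in 2 genes. For Usp9x the computed value was -0.06 and the measured one 0.06 (SE 0.0826), at the time of its highest mean Cast level. For Cul4b the 2 values were -0.20 and -0.28 (SE 0.0712), and the B6 change used for the computed one had an SE of 0.205.

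The genes were next set beside their chromosomal neighbours, the X-linked genes within 500 kb. Around Uba1, 8 neighbours were tested for the B6 share and 7 were called lower at 24 h. Their log2 changes ran from -1.25 to -0.56 with a median of -0.96, all lower than the -0.48 of Uba1. The -0.56 was that of Timp1 (SE 0.408), which was not called. Usp11, another deubiquitinating enzyme and 20.7 kb from Uba1, had a change of -1.02 (SE 0.288), and Rbm10, 7.4 kb away, -0.58 (SE 0.108). Of the 5 tested neighbours of Usp9x 2 were called lower, with a median of -0.40 and a range of -0.89 to 0.70. Both ends came from genes with few allelic reads that were not called, Gm14634 (SE 0.503) and AA414768 (SE 0.724). The RNA helicase gene Ddx3x, 108 kb away, had -0.39 (SE 0.0744, edgeR adjusted p 3.9e-05), beside the -0.54 of Usp9x. Around Huwe1, 10 of 12 neighbours were called lower, with a median of -1.43 and a range of -2.65 to -0.72. The lowest was Gpr173 (SE 0.65), on few allelic reads, and the weakest the histone demethylase gene Kdm5c. The neighbours of Cul4b and Ube2a were mostly without enough allelic reads, with 2 and 5 tested. Of these 1 and 2 were called lower. The changes ran from -0.95 to 0.10 around Cul4b and from -1.18 to -0.34 around Ube2a. Lamp2, 75.2 kb from Cul4b, had 21.7% allelic reads and a change of -0.95 (SE 0.0986). The 0.10 was that of Zbtb33 (SE 0.866), on few allelic reads and not called. Differences between a gene and its neighbours were not tested.

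The X-linked genes whose time course was most like that of Usp9x, Uba1 or Cul4b were found by the root mean square difference of the log2 ratio from its own 0 h mean, over 10 samples and 268 genes with at least 50 allelic reads per sample. For Usp9x these were Btbd35f15 (0.0471), Ddx3x (0.0921) and Rbm10 (0.0982). Btbd35f15 is annotated across chrX:3750926-33577346 on the minus strand, a span that contains Usp9x and Uba1 on the opposite strand. Its reads were counted over that whole span, so its course may not be that of a single gene. The origin of these reads was not tested. Entries over 5 Mb long were left out of the neighbours but not of this comparison. For Uba1 the closest genes were Nkap (0.112), Dkc1 (0.117) and Usp9x itself (0.13). For Cul4b no gene came closer than Stag2 (0.244).

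Other X-linked ubiquitin genes, which were more numerous, covered a wider range of B6 share changes than the 4 genes with allelic reads. Of 28 listed ligases, adaptors, deubiquitinases and ubiquitin-binding proteins, 15 had enough allelic reads, and 2, 9, 11 and 12 of the 15 had a lower B6 share at 4, 8, 12 and 24 h, the last beside 75.1% of X-linked genes tested. The median change at 24 h was -1.34, beside -1.27 over X-linked genes. The ligase genes Rnf128 (-2.47, SE 0.193) and Rlim (-2.43, SE 0.103), the deubiquitinase gene Usp26 (-2.15, SE 0.235) and the cullin adaptor gene Klhl15 (-2.04, SE 0.16) had the lowest values among the 12 with 50 or more allelic reads per sample. Rlim, the ligase that removes the Xist repressor Rex1, lies 0.474 Mb from Xist, and its d-score went from 0.517 ± 0.00102 to 0.165 ± 0.00803 (SD, n = 2). The highest values were those of the ligase gene Mid1 (-0.34, SE 0.118, edgeR adjusted p 0.149) and of the deubiquitinase genes Brcc3 (-0.69, SE 0.0989), Otud5 (-0.69, SE 0.115) and Usp11 (-1.02, SE 0.288). Of 22 tested for total counts, 8 were lower at 24 h, beside 38.0% of X-linked genes.

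**Figure D5:**
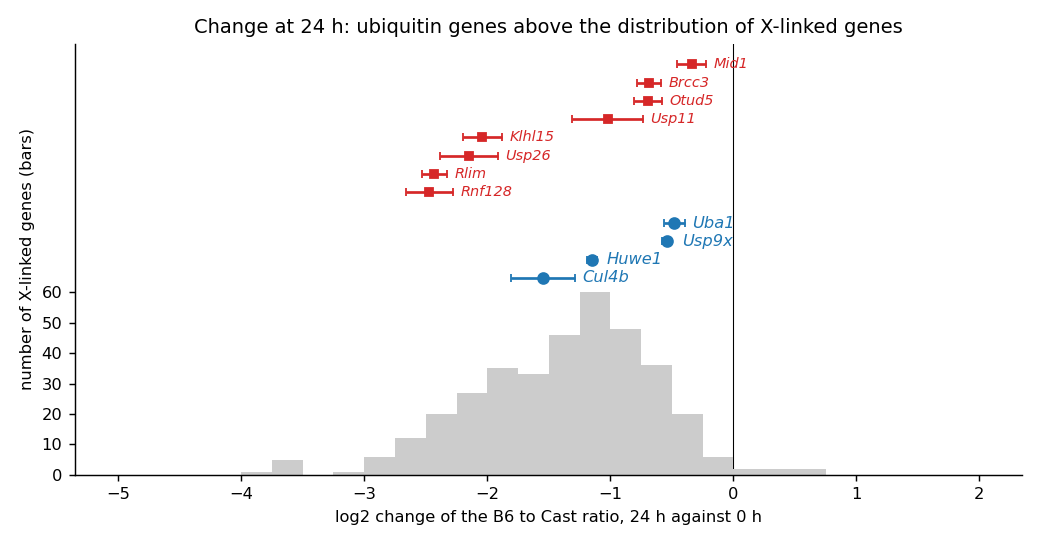
Bars count X-linked genes (362, y axis) by the log2 change of their B6 to Cast ratio at 24 h against 0 h (x axis). Above the bars, at arbitrary heights, circles mark Cul4b (-1.55), Huwe1 (-1.15), Usp9x (-0.54) and Uba1 (-0.48), squares mark the 4 lowest and 4 highest of the other X-linked ubiquitin genes, and horizontal lines are ± 1 SE.

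Autosomal relatives and partners served as a comparison on chromosomes without Xist. Of 18 listed genes, 0 of 17 were called for the B6 share and 0 of 18 for the total count at any time, by edgeR and by DESeq2. At an unadjusted p under 0.05 the share was lower in 0 and higher in 1 gene at 24 h, and the total was changed in 0 genes at 24 h and in 5 at 12 h (1 lower, 4 higher). Ube2b, the near-identical autosomal partner of Ube2a, went from a d-score of 0.524 ± 0.0125 to 0.533 ± 0.0232 (SD, n = 2), and a total change of 0.03 (SE 0.0834). Cul4a, the paralogue of Cul4b, went from 0.520 to 0.524 with a total change of -0.13 (SE 0.0727). Uba6, the other E1 enzyme for ubiquitin, went from 0.459 to 0.458, with a total change of 0.09 (SE 0.104). The deubiquitinase gene Usp24 went from 0.527 to 0.529. Of the Y-linked homologues, Usp9y had 1 to 4 reads per sample and Uba1y 0.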

How the data were processed

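TT-seq was analysed in 10 samples, 5 times of DOX with 2 replicates each. Time and replicate number come from the sample labels. The study calls its duplicates biological, but the labels do not say whether they were separate cultures. The p-values therefore measure the spread between these samples, which may be technical. edgeR estimates this spread over all samples and partly from other genes. An SE or p-value from it is thus not set by the 2 replicates of one gene and time, which can differ by more. By the study's methods the authors trimmed reads, aligned them with STAR to mm10 masked at strain variants, kept unique properly paired alignments, split them by allele with SNPSplit, and counted them by strand with featureCounts over the longest span of each gene. The submitters' processing notes name TopHat2 2.1.0, bedtools and featureCounts 1.5.1 for the series. The deposited counts (B6, Cast and all reads per gene) are raw. The deposited fraction is the d-score, present from 10 allelic reads on, and it matched the counts. Removal of duplicates is not given in the sources used here. Gene starts in the tables count from 0 and are printed counting from 1. Reads on opposite strands are separated by the strand setting. Sox2 and the same-strand microRNA genes within Huwe1 are listed at 0, which does not show that no reads fell there.

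Counts were tested with edgeR 4.0.16 quasi-likelihood fits in R 4.3.3 over all genes and all samples, two-sided, with Benjamini-Hochberg adjustment over all genes tested and a threshold of 0.05. Total counts used filterByExpr and TMM (14525 genes). The share used 20 columns (both alleles of each sample) with an intercept per sample and allele-by-time terms, for 11906 genes with at least 10 allelic reads per sample. B6 and Cast counts alone used TMM on autosomal genes. X-linked background counts leave out Xist. Curves with a residual standard error under 0.2 and a 0 h d-score of 0.3 to 0.7 were kept. Pair tests used log2 ratios with a pseudocount of 0.5. Neighbours over 5 Mb long were left out. DESeq2 1.42.0 and Python 3.11.15 were used for alternatives and description. Fits were tested on simulated data.

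Same-numbered replicates deviated together in total counts (r across genes between times 0.142 to 0.28), so a replicate block is given beside totals where it changes a call. They did not in the share (0.000396 to 0.0324), and B6 (0.0894 to 0.217) and Cast counts (0.0775 to 0.188) fell short of 0.1 in at least 1 pair of times. Intervals are 95% Wilson intervals and cover counting error only. Genes and lists were chosen with earlier results of these data known. Named genes were the 5 genes in each comparison, the 4 lowest and 4 highest of the other X-linked ubiquitin genes with at least 50 allelic reads per sample, the autosomal paralogues and any autosomal gene that passed, Y-linked homologues, neighbours within 500 kb, overlapping genes and the 3 most similar X-linked genes. The other neighbours' values are given by count and range. The genes most like Huwe1 in time course are not reported here.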

Additional observations from a re-analysis of the deposited data

How the results depend on the processing

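All 4 genes kept a lower B6 share at 24 h, and Huwe1 and Usp9x at 8 and 12 h, under the replicate block, DESeq2, both other read minimums and each left-out sample. The number of genes called lower changed as follows. From 12 to 24 h (3 genes) DESeq2 gave 0 and the block 4, from 8 to 12 h (1 gene) the block and no read minimum gave 2 each and DESeq2 0, and from 4 to 8 h (2 genes) DESeq2 gave 1. Leaving out one sample gave 0 to 1 at 4 h, 1 to 2 from 4 to 8 h, 0 to 1 from 8 to 12 h and 1 to 3 from 12 to 24 h. For total counts at 24 h (2 genes) the paired fit with the block gave 4, no low-count filter 3, and left-out samples 1 to 2, with Uba1 in place of Huwe1 without 0 h replicate 2. At 12 h (0 genes) the block, DESeq2 and no low-count filter gave 1 each. For B6 reads at 24 h (4 genes) left-out samples gave 2 to 4. With a level of 0.30 in place of 0.35, 1 gene reached it in place of 2. Besides these and the calls of totals given above, the block changed no call of a comparison with 0 h. The causes were not tested. Signs turned for values that passed no test and, apart from the 4 h share change of Cul4b (-0.27, SE 0.233), were near 0. With one sample left out, the 4 h share change ran from -0.0837 to 0.00902 for Usp9x, -0.537 to 0.0173 for Cul4b and -0.141 to 0.204 for Uba1. The 24 h Cast change ran from -0.174 to 0.201 for Huwe1, -0.222 to 0.278 for Cul4b and -0.171 to 0.0742 for Uba1, and for Huwe1 it was -0.000518 with DESeq2 and -0.0132 with the autosomal count alone. Huwe1 relative to Cul4b was 0.00164 on the d-score scale and 0.0137 with 12 and 24 h alone. With a sample left out, the other sample of its time was assumed to vary like the rest. Depth limits Cul4b (124 allelic reads in its lowest sample) and leaves Ube2a without a share.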
